A study of Homo sapiens with 9 samples.

Results

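RNA polymerase III makes a set of short, structured RNAs that end in a run of uridines and receive no poly(A) tail. A set of 8 symbols of this kind, 7SK, RMRP, RN7SL1, RN7SL3, RN7SL4P, RNY1, RNY3 and RNY4, were followed in RNA immunoprecipitations (RIPs) of the nuclear and the cytoplasmic poly(A) binding proteins, PABPN and PABPC. The set was chosen with earlier results of these data known, and its rows were picked out by gene symbol. The symbols matched 12 rows of 51274 gene identifiers, because 5 rows carry the symbol 7SK. Of those 12 rows, 9 had at least 1 read and 3 short 7SK copies had none in any library. In all, 6 rows, 1 each for 7SK, RMRP, RN7SL1, RN7SL3, RN7SL4P and RNY1, had a mean above 50 normalised reads over the 6 libraries of each comparison with input and could be called. RNY3, RNY4 and the 7SK copy on chromosome 17 were below it.

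The libraries came from HEK293T cells, a widely used cell line of human embryonic kidney origin. The cells were labelled wildtype and carried no further genetic change or treatment in these samples. Cells were crosslinked with 0.1% formaldehyde for 10 min, and the lysate of each of 3 biological replicates was divided between an antibody against PABPN and an antibody against PABPC. Total RNA was depleted of ribosomal RNA and read as single-end reads of 75 nt in 3 input, 3 PABPN RIP and 3 PABPC RIP libraries, where input is the lysate without immunoprecipitation. No values from a control antibody enter the comparisons, because RNA from such pulldowns was too scarce for a library according to the study. Reads per library were worked out from the deposited means, and the libraries are called a, b and c within each group, since the values cannot be tied to the replicate numbers of the samples. The genes whose reads were worked out held between 31162155 and 44487333 reads per library.

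Each of these RNAs is the core of a small particle. 7SK RNA holds the transcription elongation factor P-TEFb inactive in the nucleus, bound by LARP7, MEPCE and HEXIM1. RN7SL1 and RN7SL3 encode the RNA of the signal recognition particle, which guides ribosomes to the endoplasmic reticulum in the cytoplasm, and RN7SL4P is a copy of them. RMRP is the RNA of RNase MRP, a nucleolar enzyme that cuts ribosomal RNA precursors. The Y RNAs RNY1, RNY3 and RNY4 are bound by the proteins RO60 and La (SSB). Poly(A) binding proteins bind tails of adenosines, so RNAs of this kind are a natural contrast to messenger RNAs in a RIP.

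The ends of 7SK, RMRP, RNY1 and RNY4 are shown first, because a tail would be added there. Capitals mark runs of 4 or more T. Coordinates are those of the hg38 build with the GENCODE release 44 annotation, and all members are single-exon genes. For 7SK (chr6:52995620-52995950, plus strand) and RMRP (chr9:35657754-35658017, minus strand) the last 60 bases of the gene and the following 20 bases are given. For RNY1 (chr7:148987136-148987248, minus strand) and RNY4 (chr7:148963315-148963410, plus strand) the whole gene is given. RMRP, RNY1 and RNY4 overlapped no other annotated gene, and 7SK overlapped the RN7SK entry of the newer annotation, which names the same RNA. RN7SL1 lies inside an intron of RPS29 and RN7SL4P inside an intron of ANKRD28, each on the strand opposite to its host, and whether the counting used strand is not given in the sources used here.
7SK 3' end: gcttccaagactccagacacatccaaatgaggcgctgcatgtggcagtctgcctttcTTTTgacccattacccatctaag
RMRP 3' end: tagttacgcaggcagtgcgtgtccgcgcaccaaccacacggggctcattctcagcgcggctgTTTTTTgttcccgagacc
RNY1: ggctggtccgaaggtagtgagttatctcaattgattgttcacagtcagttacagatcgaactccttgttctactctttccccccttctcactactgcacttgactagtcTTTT
RNY4: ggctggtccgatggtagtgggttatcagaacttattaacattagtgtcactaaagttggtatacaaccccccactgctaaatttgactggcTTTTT
The first T run near the end was 4 bases long in 7SK and RNY1, 5 in RNY4 and 6 in RMRP, where it began 3 bases beyond the annotated end. RMRP was matched to release 44 by symbol, because its deposited identifier is not in that release. It has 264 bases there and a deposited length of 268, so the ends of the counted gene may differ. None of these 4 genes held a long stretch of A. The longest A run was 2 bases in RNY1 and 3 in 7SK, RMRP and RNY4. RN7SL4P, whose sequence is not shown, had no T run of 4 or more in the gene or near its end.

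How much of each gene a read of 75 nt can place was measured by looking up every 75-base window of the member on both strands of hg38. All 190 windows of RMRP, all 39 of RNY1 and all 22 of RNY4 occurred once. The windows of RMRP are those of the 264-base entry. Of the 257 windows of 7SK, 94 (36.6%) occurred once, and the others recurred in pseudogenes such as RN7SKP71 and RN7SKP203. RN7SL1 kept 51 of 225 windows (22.7%), RN7SL3 176 of 225 (78.2%), RN7SL4P 103 of 221 (46.6%) and RNY3 10 of 28 (35.7%). Whether reads with several places were counted is not given in the sources used here. Levels of RN7SL1, 7SK, RN7SL4P and RNY3 may therefore leave out reads, and a level per length is uncertain for them. A comparison of 1 gene between libraries uses the same windows throughout.

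**Figure D1:**
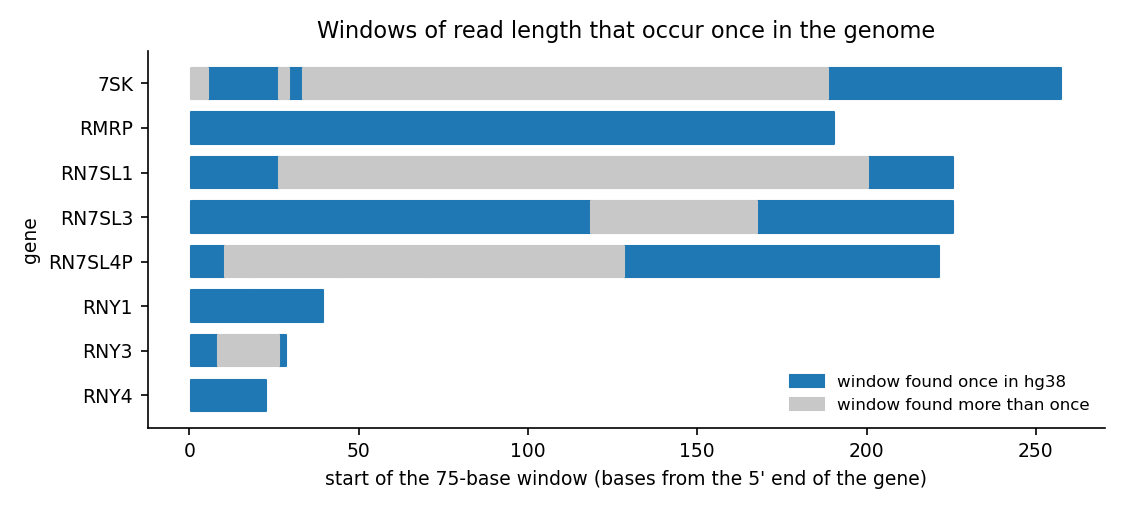
Each bar covers the start positions of all 75-base windows of a gene, in bases from its 5′ end, with windows found once in hg38 in blue and windows found more often in grey. RMRP, RNY1 and RNY4 are blue throughout, and 22.7% of the windows of RN7SL1 are blue.

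Levels were compared between genes as normalised reads, which are reads divided by the size factor of the library, per kilobase of the deposited gene length. In input, 7SK stood highest with 1440000 ± 92500 (SD, n = 3) normalised reads per kilobase. RMRP followed with 760700 ± 90700, RN7SL1 with 435300 ± 40200, RN7SL3 with 41420 ± 6490, RNY1 with 11290 ± 1600 and RN7SL4P with 2880 ± 345. Neighbours in this order did not overlap between libraries. RNY4 with 117.1 ± 72.7 and RNY3 with 114.8 ± 26.9 came last and overlapped each other. Together the members took between 1.77% and 2.05% of the reads worked out for an input library. The share was between 0.0745% and 0.0749% for a PABPN RIP library and between 0.0374% and 0.0604% for a PABPC RIP library. Abundant genes whose reads could not be worked out are missing from these totals. Shares of whole libraries would therefore be lower, by an amount not known here.

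To ask how far each RIP retained these RNAs, PABPN RIP and PABPC RIP were each compared to input, and the RIPs were compared with each other. Changes are log2 fold changes of normalised reads plus 0.5 from limma, written ± the standard error (SE) of the fit over all 9 libraries, with p-values adjusted by Benjamini-Hochberg over 38701 genes. A gene was called depleted below -0.5, or enriched above 0.5, with an adjusted p of at most 0.01 and a mean above 50 normalised reads. All 6 members that could be called were depleted in both RIPs. Among all genes, 12.5% of 15367 were depleted with PABPN and 32.4% of 14993 with PABPC. RN7SL4P and RNY1 passed the minimum of 50 in the PABPN comparison through their input level alone, since their PABPN RIP means were 5.006 and 47.44, and RN7SL4P did so in the PABPC comparison too, with a PABPC RIP mean of 33.79. Their calls are therefore not independent of the filter. 7SK, RMRP, RN7SL1 and RN7SL3 exceeded 50 in each RIP alone. The values are shares of a library, so less of an RNA cannot be told apart from more of the other RNAs, nor fewer cells holding it from less of it per cell.

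7SK, the most abundant member, fell in both RIPs and further with PABPC. The input libraries held 486398, 413478 and 456005 reads of it. The PABPN RIP libraries held 25832, 21933 and 23948 reads, and the PABPC RIP libraries 8415, 5409 and 5290. No RIP library came near an input library, and the 3 PABPN RIPs all lay above the 3 PABPC RIPs. After normalisation the PABPN RIP retained 4.71% of the input mean and the PABPC RIP 1.67%. The log2 fold change was -4.41 ± 0.109 with PABPN (adjusted p = 1.25e-11) and -5.91 ± 0.109 with PABPC (adjusted p = 7.79e-13). The PABPN RIP exceeded the PABPC RIP by 1.50 ± 0.109 on the log2 scale, or 2.83-fold (adjusted p = 3.56e-08). Among all genes in this comparison, 37.7% of 15170 were higher with PABPN and 34.2% were lower.

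The RNA of the signal recognition particle was depleted most with PABPN. RN7SL1 had 135822, 108221 and 126541 reads in input, 834, 524 and 741 in the PABPN RIPs and 6097, 2994 and 2533 in the PABPC RIPs. Every PABPN RIP library lay below every PABPC RIP library, and both groups lay far below input. The PABPN RIP retained 0.503% of the input mean, and its log2 fold change of -7.65 ± 0.186 (adjusted p = 1.25e-11) was the lowest of the 15367 genes tested. The PABPC RIP retained 3.62%, with a log2 fold change of -4.83 ± 0.186 (adjusted p = 8.82e-11). Between the RIPs it differed by -2.82 ± 0.186 on the log2 scale, or 7.07-fold lower with PABPN (adjusted p = 1.29e-08), the opposite direction to 7SK.

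RN7SL3, another gene for the same RNA, went the same way at a lower level. It had 10533, 12005 and 12459 reads in input, 103, 79 and 116 in the PABPN RIPs and 637, 339 and 289 in the PABPC RIPs. Its log2 fold changes were -7.05 ± 0.180 with PABPN and -4.60 ± 0.180 with PABPC (adjusted p = 1.68e-11 and 1.03e-10). The RIPs differed by -2.45 ± 0.180 (adjusted p = 4.05e-08), with PABPN lower. For every 100 reads of RN7SL1, RN7SL3 had 7.76 to 11.1 reads in input, 12.4 to 15.7 in the PABPN RIPs and 10.4 to 11.4 in the PABPC RIPs.

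RN7SL4P, the pseudogene copy, had 791, 755 and 862 reads in input, 6, 7 and 3 in the PABPN RIPs and 45, 23 and 16 in the PABPC RIPs. Its log2 fold changes of -7.33 ± 0.307 and -4.68 ± 0.307 (adjusted p = 1.93e-09 with PABPN and 1.48e-08 with PABPC) were close to those of RN7SL1. Between the RIPs it differed by -2.65 ± 0.307 (adjusted p = 4.61e-06), but with a mean of 19.4 normalised reads it was below the minimum of a call. The 3 genes share part of their 75-base windows and are not independent measurements.

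PABPC RIP library a stood above libraries b and c for these genes. The highest PABPC RIP library exceeded the lowest 1.68-fold for RN7SL1, 1.54-fold for RN7SL3, 1.97-fold for RN7SL4P and 1.65-fold for RMRP, against 1.22-fold for 7SK and 1.14-fold for RNY1. Without it, RN7SL1 changed by -5.06 with PABPC and differed between the RIPs by -2.58, and both passed the cut-offs.

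RMRP was depleted to a similar extent in both RIPs. Input held 211130, 165070 and 203927 reads, the PABPN RIPs 6341, 5757 and 5637 and the PABPC RIPs 8745, 4499 and 3695. After normalisation the PABPN RIPs ran from 5462 to 5607 reads and the PABPC RIPs from 5517 to 9123, so the RIP groups overlapped. RMRP retained 2.73% of the input mean with PABPN and 3.37% with PABPC, with log2 fold changes of -5.19 ± 0.161 and -4.92 ± 0.161 (adjusted p = 8.46e-11 and 1.73e-11). A difference between the RIPs was not detected (log2 -0.27, 95% interval -0.62 to 0.08, adjusted p = 0.19).

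Among the Y RNAs only RNY1 had enough reads for a call. It had 1105, 1303 and 1200 reads in input, 39, 83 and 28 in the PABPN RIPs and 88, 65 and 54 in the PABPC RIPs. Its log2 fold changes were -4.89 ± 0.295 with PABPN and -3.87 ± 0.295 with PABPC (adjusted p = 1.08e-07 and 7.01e-08). PABPN RIP library b was the highest of its group, and after normalisation the PABPN RIPs ran from 27.13 to 80.69 reads against 80.62 to 91.8 with PABPC, so the groups overlapped. The difference between the RIPs, -1.02 ± 0.295, was not called (adjusted p = 0.0105). It was not called in 12 of 16 alternatives either, with adjusted p up to 0.144, and was -0.70 without PABPN RIP library c. It was called in 4, which were leaving out PABPN RIP library b (-1.48, adjusted p = 0.000232), centring (-1.10, adjusted p = 0.00642), a pseudocount of 1 (-1.01, adjusted p = 0.00981) and recomputed size factors (-1.26, adjusted p = 0.00259).

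RNY3 and RNY4 were measured by a few reads each. RNY3 had 9, 13 and 11 reads in input, 3, 1 and 0 in the PABPN RIPs and 1 in each PABPC RIP. RNY4 had 19, 10 and 4 reads in input, 2, 0 and 0 in the PABPN RIPs and 0 in every PABPC RIP. For both, every input library lay above every RIP library, and how many of all genes separate in this way was not counted. Against a floor of 3 reads over the PABPC RIP group, RNY4 was at least 8.93-fold lower than in input. The 7SK copy on chromosome 17 (ENSG00000271394) had 42, 34 and 48 reads in input, 5, 1 and 3 in the PABPN RIPs and 7, 2 and 2 in the PABPC RIPs. All 3 rows lay below the minimum mean of 50 normalised reads and were not called.

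**Figure D2:**
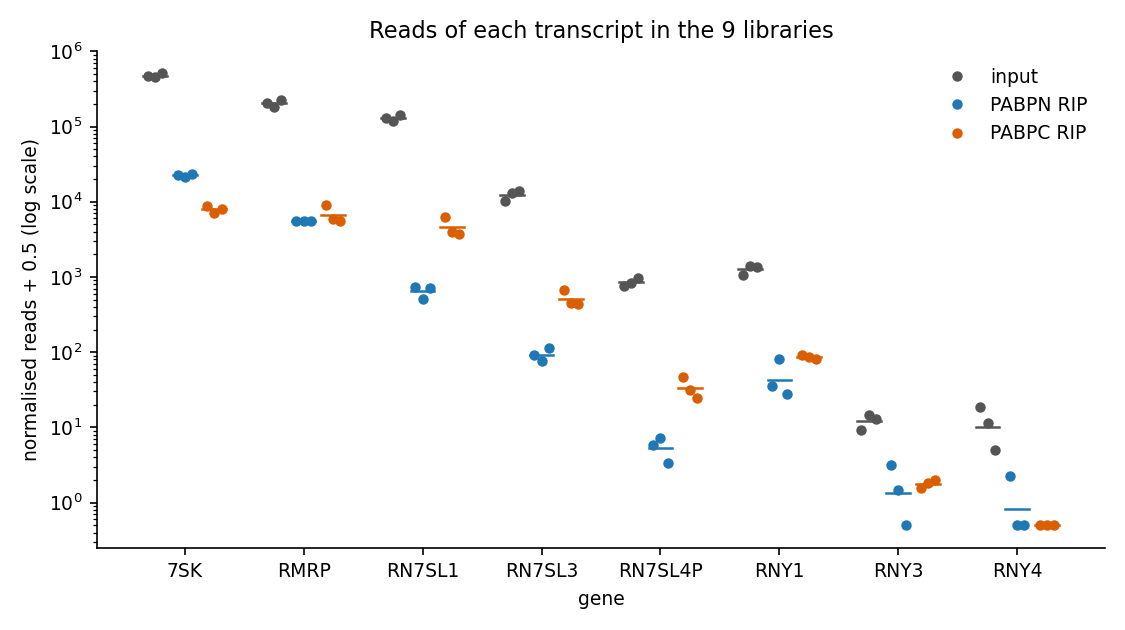
Points are normalised reads plus 0.5 of each gene in each of the 9 libraries on a log axis, and bars are the group means of the log values, in grey for input, blue for PABPN RIP and orange for PABPC RIP. Every RIP library lies below every input library of the same gene, and 7SK is the member with the PABPN RIPs above the PABPC RIPs in all 3 libraries. The share of all genes with such a separation was not counted.

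**Figure D3:**
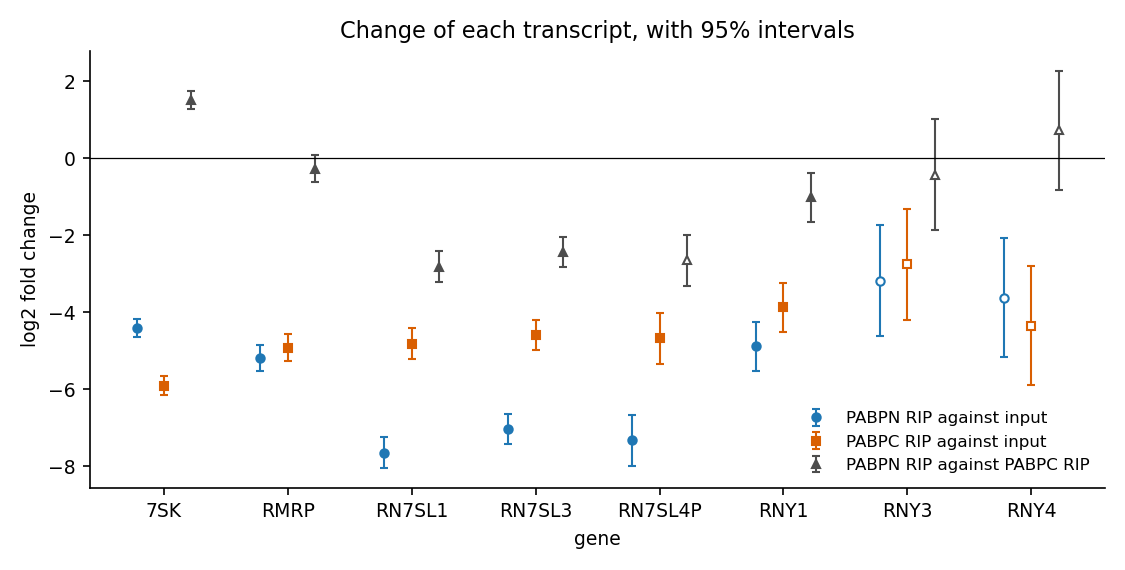
Log2 fold changes of each gene with 95% intervals for PABPN RIP against input (blue circles), PABPC RIP against input (orange squares) and PABPN RIP against PABPC RIP (dark triangles), with open symbols where the mean of the comparison was 50 normalised reads or less. The triangles lie above 0 for 7SK, at 1.50, and below it for RN7SL1, RN7SL3 and RN7SL4P.

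Ranked by retention in the PABPN RIP, the members that could be called ran from RN7SL1, RN7SL4P and RN7SL3 through RMRP and RNY1 to 7SK, the best retained. In the PABPC RIP the order ran from 7SK, the least retained, through RMRP, RN7SL1, RN7SL4P and RN7SL3 to RNY1. The 95% intervals of neighbours overlapped in both orders, except between RN7SL3 and RMRP with PABPN and between 7SK and RMRP with PABPC. As a level per kilobase, RMRP with 25640 ± 7330 and 7SK with 24030 ± 2410 normalised reads overlapped in the PABPC RIP, whereas 7SK had 67850 ± 3020 and RMRP 20730 ± 302 in the PABPN RIP. RMRP had 39.9 to 44.7 reads for every 100 of 7SK in input, 23.5 to 26.2 in the PABPN RIPs and 69.8 to 104 in the PABPC RIPs.

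Genes with the most similar pair of log2 fold changes were looked up among 13658 other genes with a symbol that passed the minimum in both comparisons. For RN7SL1, RN7SL3 and RN7SL4P the nearest were the other two members of the trio and the copy RN7SL128P, at distances of 0.296 to 0.98. RNY1 was nearest to the histone genes H4C11 (0.169) and H2BC8 (0.37) and to SNORD3A (0.25), the U3 small nucleolar RNA. The nearest to 7SK was its copy RN7SKP255 (0.522), followed by RMRP (1.26). The distances of RN7SKP255 and RN7SL128P rest on few reads in the RIPs, down to 0 in a library. RMRP had no close neighbour, with RNY1 at 1.09, H4C11 at 1.22 and SNORD3A at 1.25.

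Of 32 symbols on a list of other RNA polymerase III genes, 29 had rows, 13 had reads and 2 passed the minimum. RN7SL2, RNY5 and RPPH1 were not analysed here. RNU6ATAC, the U6atac RNA of the minor spliceosome, had 549, 690 and 581 reads in input, 96, 143 and 78 in the PABPN RIPs and 21, 25 and 14 in the PABPC RIPs. It was depleted in both, with log2 fold changes of -2.72 ± 0.244 and -4.66 ± 0.244 (adjusted p = 3.28e-06 and 1.64e-09), and like 7SK it was higher with PABPN than with PABPC, by 1.94 ± 0.244 (adjusted p = 1.11e-05). Its PABPC RIP mean was 25.3 normalised reads, so it passed the minimum of 50 there through input, and between the RIPs through the PABPN RIP. Genes of this list below the minimum were not called. Most of their fitted changes with PABPN were negative, as for RNA5S9, and a minority were positive, as for BCYRN1. BCYRN1 had 2, 5 and 5 reads in input, 19, 20 and 16 in the PABPN RIPs and 6, 12 and 10 in the PABPC RIPs. Of its 126 windows of 75 bases, 3 (2.38%) occurred once, and it holds an A run of 11 bases. Whether either bears on its reads was not tested. RNA5S9 had 114, 39 and 54 reads in input, 0 in every PABPN RIP and 2, 0 and 0 in the PABPC RIPs.

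VTRNA1-3, a vault RNA, was the other gene of the list that passed the minimum, and it was not depleted with PABPN. It had 111, 125 and 104 reads in input, 168, 95 and 143 in the PABPN RIPs and 17, 37 and 42 in the PABPC RIPs. The PABPN RIPs overlapped input, with a log2 fold change of 0.05 ± 0.363 (adjusted p = 0.975), and the PABPC RIPs lay below both, with -1.64 ± 0.363 against input (adjusted p = 0.00179). The PABPC call was lost in 9 of 16 alternatives, 7 of which left out 1 library, with adjusted p up to 0.0497. Its PABPC RIP mean of 43.2 normalised reads lay below the minimum, which it passed there through input. VTRNA1-3 lies at chr5:140726158-140726246 inside an intron of a lncRNA on the same strand, and the share of its reads that came from the host was not tested.
VTRNA1-3: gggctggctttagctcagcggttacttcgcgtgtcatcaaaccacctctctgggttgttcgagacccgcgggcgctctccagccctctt
Its sequence holds no T run of 4 or more and no A run over 3 bases. RN7SL4P, a depleted member, holds no T run of 4 or more either, and whether such a run bears on depletion was not tested.

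Copies of the members are numerous in the genome, and most had no read assigned to them. Of 1088 rows, 397 had reads and 5 passed the minimum in the PABPN comparison, of which 4 were depleted and 1 was enriched. The 4 passed it through input alone, with PABPN RIP means of 0.884 to 16.1 normalised reads, and the enriched copy passed through the PABPN RIP alone, so the filter fixed these directions. RN7SL396P had 417, 480 and 471 reads in input, 24, 10 and 18 in the PABPN RIPs and 178, 44 and 24 in the PABPC RIPs. Its log2 fold change was -4.92 ± 0.457 with PABPN and -2.71 ± 0.457 with PABPC, where it ranged from -3.38 without PABPC RIP library a to -2.20 without library c. The PABPC call was lost in 4 of 16 alternatives, with adjusted p up to 0.0181. RN7SL752P changed by -5.22 ± 0.344 and -3.24 ± 0.344, while RN7SL128P had 110, 90 and 94 reads in input, 3, 0 and 0 in the PABPN RIPs and 4, 1 and 1 in the PABPC RIPs. The fitted size of so low a level depends on the pseudocount, and no fold change is given for it. RN7SKP255, a 7SK copy, had 235, 207 and 244 reads in input, 17, 9 and 12 in the PABPN RIPs and 13, 2 and 0 in the PABPC RIPs. It changed by -4.33 ± 0.827 with PABPN, a call lost in 9 of 16 alternatives. With PABPC the fitted value was -6.42 ± 0.827, and its size also depends on the pseudocount. Its PABPC value moved to -7.58 without PABPC RIP library a and to -5.18 without library c. RN7SL832P, listed as a lncRNA, was enriched with PABPN (log2 1.59 ± 0.245, adjusted p = 0.000317) and not called with PABPC (0.60 ± 0.245). Among all genes 15.4% were enriched with PABPN.

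The proteins of the same particles are made from messenger RNAs, and most of those messages were not depleted. Of 24 messages measured, 5 were depleted and 1 was enriched with PABPN, while 0 were depleted and 18 were enriched with PABPC, where 37.3% of all genes were enriched. Over all genes, 12.5% were depleted and 15.4% enriched with PABPN. Between the RIPs, 18 of the 24 were lower with PABPN and 0 were higher, against 34.2% and 37.7% of all genes. YBX1 was not analysed here, because its reads could not be worked out.

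None of the 6 messages for 7SK particle proteins was called with PABPN and 5 were enriched with PABPC. CCNT1, the cyclin of P-TEFb, changed by 0.46 ± 0.110 with PABPN and 0.75 ± 0.110 with PABPC. MEPCE, which caps 7SK RNA, changed by -0.42 ± 0.143 and 1.38 ± 0.143. LARP7, which binds its 3′ end, was called in neither (0.12 ± 0.109 and 0.19 ± 0.109).

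Of 6 messages for signal recognition particle proteins, 4 were depleted with PABPN, 5 were enriched with PABPC and all 6 were lower with PABPN than with PABPC. SRP14 changed by -1.05 ± 0.103 with PABPN and 1.997 ± 0.103 with PABPC. SRP9, whose protein pairs with that of SRP14, changed by 0.09 ± 0.118 and 1.73 ± 0.118. SRP72 and SRP68, whose products form a pair on the large domain, changed by -0.68 ± 0.105 and -0.75 ± 0.120 with PABPN and by 0.84 ± 0.105 and 0.79 ± 0.120 with PABPC. The PABPN call was lost in 3 of 16 alternatives for SRP72 (adjusted p up to 0.0148) and in 7 of 16 for SRP68 (adjusted p up to 0.018).

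For RNase MRP and RNase P, 7 of 10 messages were enriched with PABPC, 1 was enriched with PABPN and none was depleted. POP7 was among the most enriched with PABPC (2.80 ± 0.178, and -0.25 ± 0.178 with PABPN). RPP14, the message enriched with PABPN (0.62 ± 0.137), lost that call in 12 of 16 alternatives and rose by 1.18 ± 0.137 with PABPC. POP1 and RPP30 were called in neither. Of the Y RNA partners, SSB was depleted with PABPN (-0.77 ± 0.160), a call lost in 10 of 16 alternatives. RO60 was enriched with PABPC (0.53 ± 0.144), a call lost in 11 of 16.

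**Figure D4:**
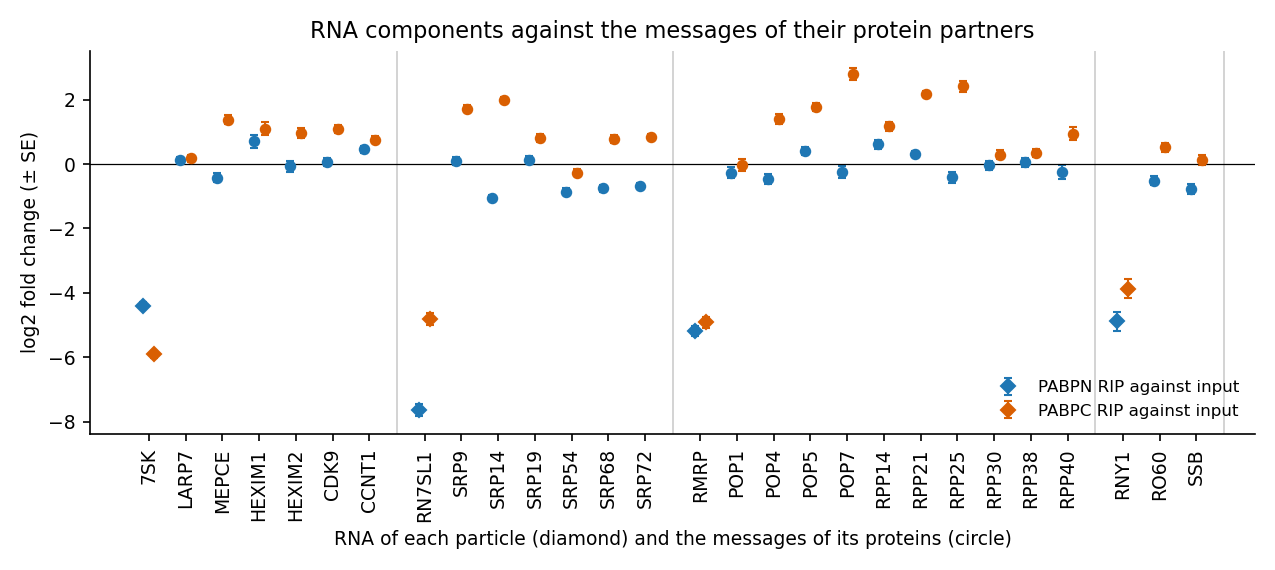
Log2 fold changes with SE of the RNA of each particle (diamonds) and the messages of its proteins (circles), with PABPN RIP against input in blue and PABPC RIP against input in orange. The 4 RNAs lie between -3.87 and -7.65, and the messages lie between -1.05 and 2.80.

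Other RNAs without poly(A) tails were set beside the members. The minimum was a mean over both groups, so a gene low in a RIP could pass it through input. Of 49 histone genes that passed the minimum, 46 were depleted with PABPN and 46 with PABPC, with median log2 fold changes of -4.63 and -2.86, against -0.04 and 0.12 over all genes tested. Small nuclear RNAs were depleted in 6 of 15 genes with PABPN (median -0.52) and in 10 of 10 with PABPC (median -2.87). All 10 small nuclear RNAs that passed the minimum between the RIPs, RNU6ATAC among them, were higher with PABPN, against 37.7% of all genes. That minimum was a mean over both RIPs, so a gene low with PABPC could pass it through the PABPN RIP. Transfer RNA genes, also made by RNA polymerase III and added after the values were seen, were depleted in 6 of 7 genes with PABPN (median -4.22) and 6 of 6 with PABPC (median -5.92). The shares over all genes were 12.5% and 32.4%. No transfer RNA gene passed the minimum between the RIPs, so these calls were not independent of the filter. Of 4 small nucleolar RNAs, 2 were depleted and 1 was enriched with PABPN, and of 5, 3 were depleted and 1 was enriched with PABPC. No small Cajal body RNA passed the minimum.

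**Figure D5:**
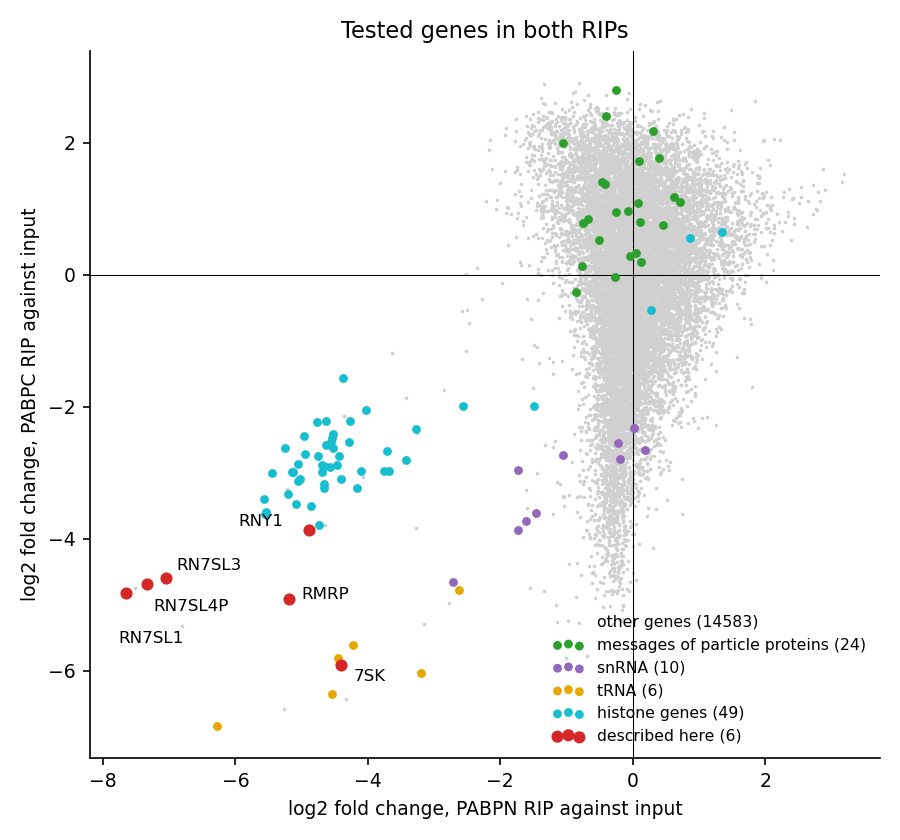
Each point is a gene that passed the minimum in both comparisons, with its log2 fold change with PABPN on the horizontal axis and with PABPC on the vertical axis. The 6 members in red lie at -4.41 or lower with PABPN and -3.87 or lower with PABPC, the 10 small nuclear RNAs (purple) lie to their right, and the 49 histone genes (cyan) mostly lie above them.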

How the data were processed

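The data were 2 tables, 1 for each RIP against input, each resting on 6 of the 9 libraries and grouped by the sample titles. Per the labels and methods, the authors aligned reads to hg38 with STAR and counted introns and exons together with featureCounts 2.0.2 over a GENCODE-derived annotation without overlapping stretches. The signal column the authors deposited is the average over 6 libraries of reads scaled by size factors from DESeq2. The authors also deposited log2 values of each RIP relative to input, with their errors.

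Because these columns hold whole reads to 15 digits, reads per library were worked out by an integer search. The 6 size factors of a table came from genes with 1 read. Low genes were solved from the means alone, and the same 3 input reads came from either table in 20675 of 20675 genes. Abundant genes, 7SK, RMRP and RN7SL1 among them, also needed the deposited fold change and its error, which served only to choose among whole numbers. In a fit without a replicate term, 11230 of 11230 such solutions gave back the deposited fold change within 1e-12. Because that fold change was used to find them, this is not an independent check. Where several candidates remained, as for 7SK (2855272 sets) and RMRP (12515 sets), the deposited fold change picked the 1 that was kept. Reads of 38865 of 39028 genes were worked out (99.6%). The other 163 genes, among the most abundant, were left out. Deposited p-values and Wald statistics were not used, and no deposited fold change is printed. PABPC RIP size factors were put on the scale of the PABPN table through the shared input (factor 0.8549).

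Log2(reads / size factor + 0.5) was fitted with limma 3.58.1 (trended, two-sided) in R 4.3.3 over 9 libraries and 38701 genes. The calls used a change beyond 0.5, an adjusted p of at most 0.01 and a mean above 50, the cut-offs of the study. The labels call the 3 libraries of a group independent biological replicates of 1 cell line. Fold changes of genes with few reads depend on the pseudocount on this scale, and they can be understated or, where 1 library is near 0, overstated. Steps were tested on simulated data, in which most of the smaller changes were not called. Alternatives were other pseudocounts, minimums, cut-offs, centring and variance, each library left out, and, added after seeing the data, recomputed size factors. Named genes were all members, other polymerase III genes above the minimum, up to 6 called copies, 2 to 4 abundant messages per particle and the 3 nearest genes. BCYRN1 and RNA5S9 were named in addition, as polymerase III genes below the minimum. The members and lists were chosen with earlier results of these data known. The low number of reads limits RNY3 and RNY4, and floors cover counting error only. Sequences of some members are not reported here.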

Additional observations from a re-analysis of the deposited data

Results flagged for a closer look

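The change against the same input differed between PABPN RIP and PABPC RIP for 3 members by the direct contrast of the RIPs in limma. 7SK was higher with PABPN by 1.50 on the log2 scale (SE 0.109, adjusted p = 3.56e-08, 3 of 3 libraries above every PABPC RIP library). RN7SL1 differed by -2.82 (SE 0.186, adjusted p = 1.29e-08) and RN7SL3 by -2.45 (SE 0.18, adjusted p = 4.05e-08), both lower with PABPN in 3 of 3 libraries. Among all genes, 37.7% were higher and 34.2% were lower in this contrast.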

How the results depend on the processing

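Depletion of 7SK, RMRP, RN7SL1, RN7SL3, RN7SL4P and RNY1 kept its direction and its side of the cut-offs in both RIPs under all 16 alternatives, with 6 members called each time and 9 with no minimum level, which added RNY3, RNY4 and the 7SK copy. The number of members that differed between the RIPs was 3, and 3 to 4 with a library left out. It was 4 with a pseudocount of 1, with centred fold changes, with no minimum level and with recomputed size factors. Among the 6 members that could be called, RNY1 with PABPN had the widest range of change against input, from -5.35 to -4.57. With recomputed size factors the difference between the RIPs was 1.26 for 7SK and -3.06 for RN7SL1. Calls against input of SSB, RO60, RPP14, SRP68, SRP72, VTRNA1-3, RN7SL396P and RN7SKP255 were lost under 3 or more alternatives, and the cause was not tested. Few reads limit RNY3 and RNY4. No paired analysis was possible because the reads worked out carry no replicate number.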
